A study of Mus musculus with 10 samples.

Results

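Lyz1, Lyz2, Laptm5, Cd14, Cd68, Tyrobp, Fcer1g, Ptprc, Csf1r and Aif1 are 10 genes used as markers of macrophages and other leukocytes, and here they were read in cultured 4T1 sublines as a check for RNA of host cells. The members were all probes of the deposited intensity table whose gene symbol in the platform annotation is 1 of these 10. By this rule 9 of the 10 genes had a probe, 19 probes of the 45281 on the array, and no probe carried the symbol Cd68 in the annotation used here. Of the 9 genes, 4 gave a signal above the negative control beads (detection p of 0.01 or less, called detected below) on at least 1 array, against 9486 of the 19057 genes of the array that had a probe with 1 symbol.

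The study inoculated 4T1 mouse mammary carcinoma cells, tagged with firefly luciferase, under the skin of female BALB/c mice, 6 to 8 weeks of age, and later dissociated organs to recover sublines. The groups were brain-derived sublines (B, n = 4), lung-derived sublines (L, n = 3) and primary tumour-derived sublines (P, n = 3), each subline isolated independently and measured on 1 Illumina MouseWG-6 v2.0 array, so that B1 to B4, L1 to L3 and P1 to P3 name both a subline and its array. Brains and lungs were broken up mechanically, whereas primary tumours were digested with collagenase and DNase and their red cells lysed, and all RNA came from cultures passaged 3 to 4 times. The tumour cells of all 3 groups share the 4T1 parent and its luciferase tag, the host is immune competent, and no sort or drug selection of these cultures is described. In such bulk RNA, fewer cells of a type and less RNA per cell cannot be told apart.

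As background, the 10 genes cover different steps of macrophage biology. Csf1r is the receptor that keeps macrophages and microglia alive, Tyrobp and Fcer1g are adaptors that pass on the signal of activating and Fc receptors, Cd14 hands bacterial lipopolysaccharide to the Toll-like receptor Tlr4, and Lyz1 and Lyz2 are lysozymes that cleave bacterial cell walls. Ptprc (CD45) is a phosphatase on nearly all leukocytes, Laptm5 a lysosomal membrane protein of blood cells, Cd68 a lysosomal glycoprotein of macrophages, and Aif1 (Iba1) the usual marker of microglia. Lyz2 is the main lysozyme gene of mouse macrophages, Lyz1 is best known from Paneth cells of the gut, and Cd14 is also made by some epithelial cells.

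The lysozyme genes gave the strongest group differences among the members, and they are closely related neighbours on 1 chromosome. Their start-site regions are shown because the genes had the same direction in each comparison on the arrays. Each line is the 250 bases before the start site, on the minus strand of mouse chromosome 10 (RefSeq, GRCm38.p6), at chr10:117292869-117293118 for Lyz1 and chr10:117282273-117282522 for Lyz2. Capitals mark the letters AGGAAG or, from the other strand, CTTCCT, the core bound by ETS family factors such as PU.1, the factor that drives myeloid genes.
Lyz1: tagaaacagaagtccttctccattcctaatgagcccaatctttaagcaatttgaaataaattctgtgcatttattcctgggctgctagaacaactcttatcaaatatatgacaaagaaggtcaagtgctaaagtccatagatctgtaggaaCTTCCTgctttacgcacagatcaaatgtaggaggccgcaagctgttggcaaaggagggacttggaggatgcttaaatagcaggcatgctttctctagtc
Lyz2: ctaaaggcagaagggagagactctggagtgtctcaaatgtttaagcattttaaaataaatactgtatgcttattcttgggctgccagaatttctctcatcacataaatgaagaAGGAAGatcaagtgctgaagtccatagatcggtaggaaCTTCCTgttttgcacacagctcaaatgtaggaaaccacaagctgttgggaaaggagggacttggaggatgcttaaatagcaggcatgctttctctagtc
The aligned regions were identical at 205 of 260 columns (78.8%), and the last 50 bases before the start site were the same in both. The Lyz1 region held 1 match to the motif and the Lyz2 region 2, while 29.5% of the 32851 regions of this length in the table held at least 1 match. A match is a description of the letters and not a bound site. These bases lie outside the transcript and say nothing of the probes. No probe or transcript sequence was compared here, so it is uncertain from which of the genes the Lyz1 and Lyz2 signals come.

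Lyz1 was seen with 1 of its 3 probes (ILMN_2878071). In the B sublines its intensity was 68.6, 79.2, 63.8 and 62.6 in B1 to B4, detected on no array, against 391, 291 and 540 in L1 to L3, detected on all 3. In the P sublines it was 70.5, 157 and 349 in P1 to P3, detected in P2 and P3 only. On the normalized log2 scale these were 4.57, 5.24, 4.56 and 4.45 for B1 to B4, 8.05, 8.23 and 8.91 for L1 to L3, and 4.60, 7.03 and 8.02 for P1 to P3. Every L subline lay above every B subline on both scales. P1 was at background, but the L sublines were not clear of P3, since L2 was below P3 in intensity (291 in L2 against 349 in P3) and L1 just above P3 after normalization (8.05 in L1 against 8.02 in P3).

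Lyz2 was seen with 2 of its 3 probes, and both gave the same picture. For ILMN_1252076 the normalized log2 intensity was 4.47, 4.45, 4.45 and 4.47 in B1 to B4, 6.09, 6.34 and 7.21 in L1 to L3, and 4.48, 5.70 and 6.48 in P1 to P3. For ILMN_2939681 it was 4.55, 4.53, 4.55 and 4.60 in B1 to B4, 6.26, 6.32 and 7.52 in L1 to L3, and 4.54, 4.75 and 6.39 in P1 to P3. Both probes were detected in the 3 L sublines and in P3, and in no other subline. P2 read 94.6 on ILMN_1252076, with a detection p of 0.015. The order of the arrays was L3, P3, L2, L1 and P2 from the top on both, with P1 and the B sublines below them.

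The other probes of these genes, ILMN_1247933 and ILMN_2736867 for Lyz1 and ILMN_2766780 for Lyz2, were not detected on any array. Their 30 values lay between 52.8 and 72.0 in intensity, and their lowest detection p was 0.285. The probes of a gene therefore disagreed: sublines that were bright on ILMN_2878071 were at background on the other Lyz1 probes.

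Laptm5 (ILMN_1217849) was detected in L3 and P3 only. Its normalized log2 intensity was 4.44, 4.61, 4.56 and 4.70 in B1 to B4, 5.56, 5.66 and 6.65 in L1 to L3, and 4.51, 4.85 and 6.24 in P1 to P3. The L1 and L2 values came close to the detection limit, with a detection p of 0.0267 and 0.0139. Its order over the arrays began with L3, P3, L2, L1 and P2, as for both Lyz2 probes.

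Cd14 (ILMN_2742075) was the only member detected on all 10 arrays. Its intensity was 328, 212, 176 and 449 in B1 to B4, 577, 447 and 329 in L1 to L3, and 284, 287 and 350 in P1 to P3. On the normalized log2 scale this was 8.16, 7.64, 7.01 and 8.40 in B1 to B4, 8.67, 8.93 and 8.09 in L1 to L3, and 7.74, 8.19 and 8.03 in P1 to P3. All 3 groups overlapped, with L2 and L1 highest and B2 and B3 lowest. Cd14 was thus detected in P1 and in the B sublines, where Lyz1, Lyz2 and Laptm5 were not.

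The probes of Tyrobp, Fcer1g, Ptprc, Csf1r and Aif1 were detected on no array. Across their 11 probes and 10 arrays, 110 values in all, 3 had a detection p of 0.05 or less and 0 had one of 0.01 or less. Ptprc, with 4 probes, had an intensity of 51.4 to 78.4 in B sublines, 51.5 to 76.7 in L sublines and 50.8 to 76.2 in P sublines. The value nearest to detection came from Aif1 in L3 (92.7, detection p of 0.0321), followed over genes by Csf1r in L2 (80.7, detection p of 0.0427), and the lowest detection p of Ptprc was 0.212, of Tyrobp 0.278 and of Fcer1g 0.288. These 5 genes were thus not detectable at the signal these arrays gave, also on the arrays where the lysozyme probes were brightest. Their intensities summed over the 11 probes to 683 to 804 in B sublines, 708 to 834 in L sublines and 687 to 826 in P sublines, so the groups overlapped. The median intensity of all probes was itself 68.8 to 85.1 in B arrays, 69.2 to 86.0 in L arrays and 72.6 to 83.8 in P arrays.

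**Figure D1:**
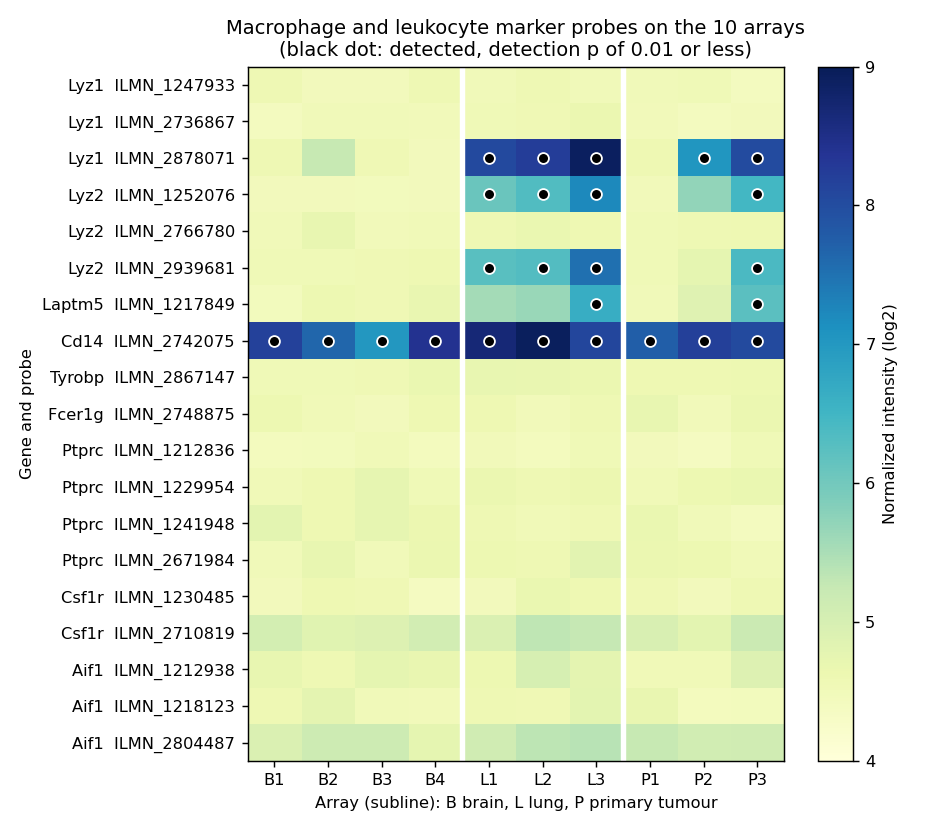
Normalized log2 intensity (colour) of the 19 marker probes (rows) on the 10 arrays (columns), with a black dot where the probe was detected at a detection p of 0.01 or less. The Lyz1 row ILMN_2878071 holds dots in L1 to L3, P2 and P3, the Lyz2 rows ILMN_1252076 and ILMN_2939681 in L1 to L3 and P3, Cd14 on all 10 arrays, and the rows of Tyrobp, Fcer1g, Ptprc, Csf1r and Aif1 hold no dot.

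Read by array, the number of members detected was 1 in each of the 4 B sublines (Cd14), 3 in L1 and L2 and 4 in L3, and 1 in P1, 2 in P2 and 4 in P3. All 19 probes together summed to 1317 to 1735 in B sublines, 1946 to 2448 in L sublines and 1545 to 2162 in P sublines. The L sums lay above all B sums, and the P sums overlapped both. The spread within P, from P1 at the level of the B sublines to P3 at that of the L sublines, was the widest within a group for Lyz1, Lyz2 and Laptm5, with an SD of 1.76 log2 units in P sublines for Lyz1, against 0.36 in B and 0.46 in L.

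**Figure D2:**
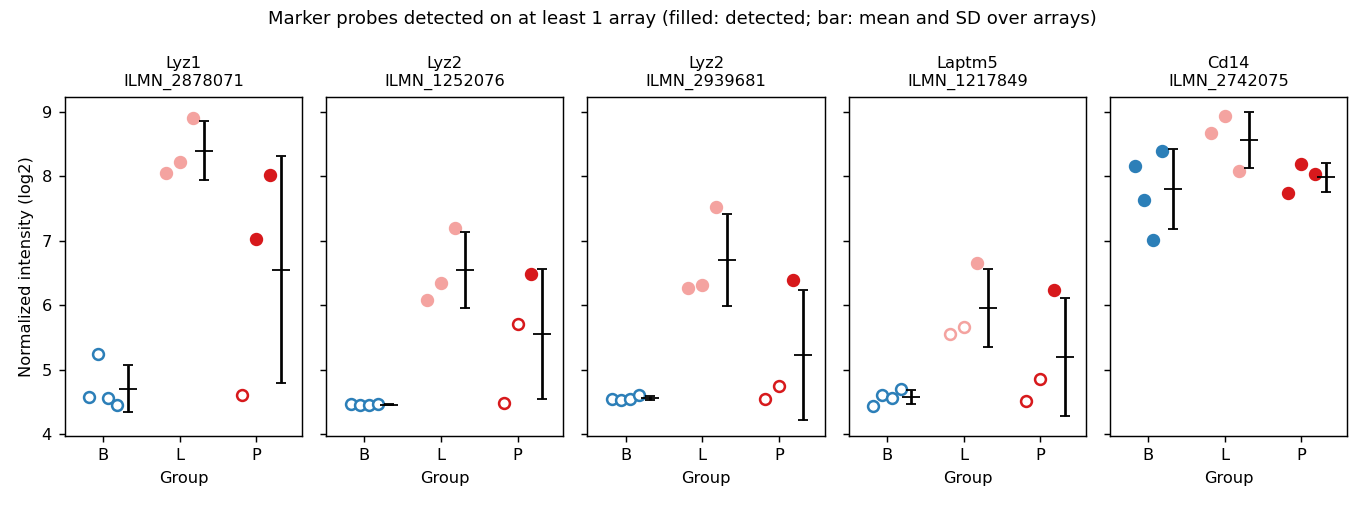
Normalized log2 intensity of the 5 marker probes detected on at least 1 array, with 1 point per subline in groups B, L and P, filled where detected, and bars for the mean and SD (n = 4, 3 and 3). For Lyz1, both Lyz2 probes and Laptm5 the B points sit at background, the L points above them and the P points spread from the B level upwards, for Lyz1 without reaching the lowest L point, while for Cd14 the groups overlap.

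The first comparison set brain-derived against lung-derived sublines. Lyz1, Lyz2 and Laptm5 were lower in B than in L sublines, and Cd14 did not pass the test. By limma with Benjamini-Hochberg adjustment over 9423 genes, 3 of the 4 tested members were called at an adjusted p under 0.05, all 3 lower in B. These 3 were detected on no B array and entered the test only through L arrays. The detection filter thus favoured this direction, and their count is no independent support for it. Over all genes 8.07% were called, 3.83% higher and 4.23% lower in B. The median log2 difference was -1.73 over the 4 members tested, with the same limit, and 0.00 over all genes tested.

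Lyz1 averaged 4.71 ± 0.36 in B and 8.39 ± 0.46 in L sublines (SD, log2), a difference of -3.69 (SE 0.26, 95% interval -4.28 to -3.10, limma adjusted p = 0.000195). The interval does not cover the choice of processing: without background correction the Lyz1 difference was -2.49. Nor does the interval cover any spread of the B sublines below background. Since no B array was above background, the fold is a bound, taken against each B array raised to its dimmest detected probe. Under the main processing Lyz1 was at least 6.52-fold lower in B. Lyz2 on ILMN_1252076 was at least 1.81-fold lower in B, with a log2 difference of -2.09 between normalized values (SE 0.25, limma adjusted p = 0.00267). With all B values undetected (SD 0.01 in B), this is not a measured fold. Its SE and adjusted p do not cover any spread of the B sublines below background. The same limit holds for the second Lyz2 probe and for Laptm5. The second Lyz2 probe, ILMN_2939681, gave -2.14 (SE 0.28, limma adjusted p = 0.00521 over all detected probes, of which 6.4% were called) and a bound of at least 2.02-fold. For Laptm5, which only L3 of the L arrays detected, the log2 difference was -1.38 (SE 0.26, limma adjusted p = 0.0155), and with L1 and L2 under the detection limit too no bound on the fold is given. In these probes no B value reached the lowest L value. Separation of the groups alone is weak evidence, since it also occurred at background. The undetected probes ILMN_2736867 of Lyz1 (lower in B) and ILMN_1241948 of Ptprc (higher in B) did not overlap between B and L either. The share of all probes that separate in this way is not given here.

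The call for Laptm5 rested on few arrays: without L replicate 2 its limma adjusted p was 0.051, and without L replicate 3 it was detected nowhere and not tested. Lyz1 and Lyz2 stayed called without any single array. For Cd14 the log2 difference was -0.76 (SE 0.34, limma adjusted p = 0.19), with a 95% interval of -1.51 to -0.01. With same-numbered B and L sublines as a block it was -0.96 (limma adjusted p = 0.0503), lower in B in all 3 pairs and still not called.

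The next comparison set brain-derived against primary tumour-derived sublines. Of the members, 0 of 4 were called by limma, against 14.4% of all 9352 genes tested (7.53% higher and 6.91% lower in B), although all 4 had a negative log2 difference. Lyz1, Lyz2 and Laptm5 entered this test only through P arrays, so the detection filter favoured that sign. The unadjusted p was under 0.05 for Lyz1 (0.0193) and Lyz2 (0.0174), and the random variance model test of the study's methods also called 0 members after adjustment. Lyz1 differed by -1.84 (SE 0.65, limma adjusted p = 0.0863, 95% interval -3.32 to -0.37) and Lyz2 by -1.10 (SE 0.38, limma adjusted p = 0.0814, 95% interval -1.95 to -0.24). The outcome depended on single P arrays, and P1 lay at the level of the B sublines in both genes. Without P replicate 1, 2 members were called, Lyz1 at -2.82 (limma adjusted p = 0.0137) and Lyz2 at -1.63 (limma adjusted p = 0.0161). Without P replicate 3, Lyz1 fell to -1.11 (limma adjusted p = 0.27), and Lyz2 and Laptm5 were detected nowhere in B or P and not tested.

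Laptm5 differed by -0.62 (SE 0.36, limma adjusted p = 0.258, 95% interval -1.42 to 0.18). Cd14 differed by -0.18 (SE 0.31, limma adjusted p = 0.734, 95% interval -0.88 to 0.52), a difference well inside the spread between sublines, whose SD was 0.62 in B and 0.23 in P. The median log2 difference was -0.86 over the 4 members and -0.01 over all genes tested, where Lyz1, Lyz2 and Laptm5 had entered only through P arrays.

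The last comparison set lung-derived against primary tumour-derived sublines. Again 0 of 4 members were called by limma, beside 0.412% of the 8974 genes tested (0.379% higher and 0.0334% lower in L), so few genes passed in this comparison at all. The unadjusted p was under 0.05 for Lyz1 (0.0233) and Cd14 (0.0293), and the random variance model test called 0 members after adjustment. Lyz1 differed by 1.84 (SE 0.69, limma adjusted p = 0.256, 95% interval 0.31 to 3.38). It was the one tested member whose normalized L and P values did not overlap, and only narrowly. This separation is weak evidence, since undetected probes of Tyrobp and Lyz1 (ILMN_2736867) did not overlap between L and P either. The share of all probes that do so is not given. Lyz2 differed by 0.99 (SE 0.45, limma adjusted p = 0.349, 95% interval -0.02 to 2.00), Laptm5 by 0.76 (SE 0.43, limma adjusted p = 0.441, 95% interval -0.20 to 1.72) and Cd14 by 0.58 (SE 0.23, limma adjusted p = 0.275, 95% interval 0.07 to 1.09). All 4 members had a positive difference, with a median of 0.87 beside -0.01 over all genes tested. The 3 comparisons share their samples pairwise, so their differences are not independent of each other.

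**Figure D3:**
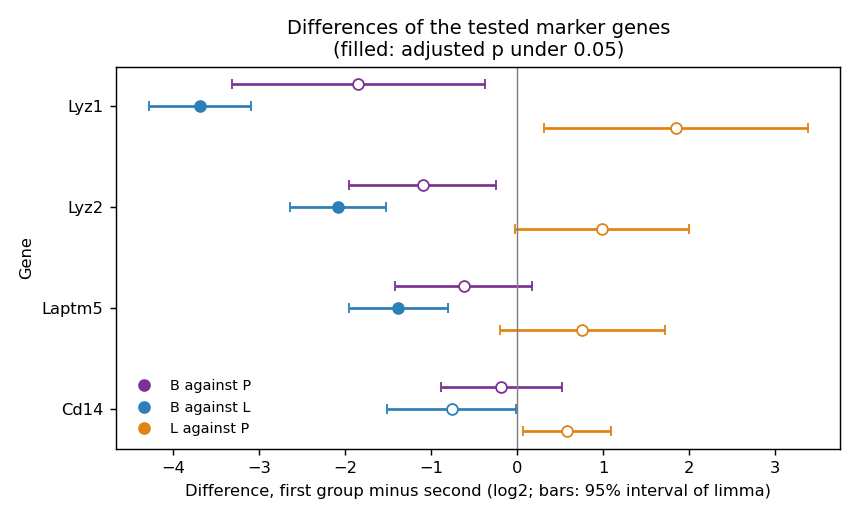
Log2 difference (horizontal axis, first group minus second, bars for the 95% interval of limma) of the 4 tested marker genes in B against P, B against L and L against P, filled where the adjusted p was under 0.05. The 3 filled points are Lyz1, Lyz2 and Laptm5 in B against L, at -3.69, -2.09 and -1.38.

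The genes whose levels over the 10 arrays followed Lyz1 most closely, of 7980 genes detected on at least 5 arrays, were Ccl2 (Pearson r = 0.965), Nfkbid (r = 0.961) and Mtbp (r = 0.948). Ccl2 encodes the chemokine that attracts monocytes, and its normalized log2 intensity was 4.80, 5.42, 5.24 and 5.14 in B1 to B4, 8.54, 8.35 and 7.86 in L1 to L3, and 4.56, 6.80 and 7.81 in P1 to P3. Ccl2 was detected on 5 arrays, and its values in P1 and the B sublines lay under the dimmest detected probe of their arrays. The order among those values therefore carries no meaning. P3 lay just below the lowest L subline. The r of Lyz1 with Ccl2 thus also reflects arrays at background in both genes (Spearman rho = 0.842). For Cd14 the closest were Pola2 (r = 0.937), a subunit of DNA polymerase alpha, Golga3 (r = 0.934), a Golgi protein, and Stk38l (r = 0.883), a kinase. These r values describe points that fall into groups of arrays and carry no test.

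Markers of other host cells were read on the same arrays from 14 further lists. Of 26 other macrophage and microglia genes, all with a probe, 3 were detected on any array, each on 2, and none on all. Summed over their probes the intensity of this list was 2584 to 3258 in B, 2746 to 3290 in L and 2792 to 3263 in P sublines. P2ry12, a purine receptor of microglia, was lower in B than in L sublines, with 4.79, 4.53, 4.54 and 4.74 in B1 to B4, against 6.21, 5.72 and 5.83 in L1 to L3 and 5.75, 5.08 and 4.93 in P1 to P3. Its B against L comparison gave a log2 difference of -1.27 (SE 0.18, limma adjusted p = 0.00465), and it was detected in L1 and L3 only and on 1 of its 2 probes. P2ry12 thus entered this test only through L arrays, and with all B values undetected the difference is not a measured fold. Mertk, a receptor for the uptake of dead cells, was higher in B than in P sublines by 1.43 (SE 0.41, limma adjusted p = 0.0472), detected in B1 and B3 only. Mertk entered that test only through B arrays, and with all P values undetected this is not a measured fold either. The Mertk call was lost without B replicate 1 (0.0937) and without P replicate 1, 2 or 3 (limma adjusted p of 0.145, 0.126 and 0.109). Against L it was 1.47 (limma adjusted p = 0.0579), and there it was called without B replicate 3 (0.0162), without B replicate 4 (0.041) and with same-numbered sublines as a block (0.0483). Siglech, the remaining gene, was detected in B3 and B4 and passed no test. The direction in B was thus not the same over these genes, though for P2ry12 and Mertk the detection filter favoured the direction seen. Adgre1, Itgam, Cx3cr1, Tmem119, C1qa and Spi1, the gene of PU.1, were among the 23 not detected.

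Of the 21 other pan-leukocyte genes 19 had a probe and 6 were detected, and Lcp1, Ptpn6 and Arhgdib were detected on all 10 arrays. None of these 6 was called in B against P, where Itgb2 was called without B replicate 4 (limma adjusted p = 0.025), or in B against L. In L against P 1 of the 6, Itgb2, was higher in L than in P sublines, beside 0.412% of all genes called there. Itgb2, the beta 2 integrin subunit of leukocytes, read 8.02, 7.88 and 7.40 in L1 to L3, against 5.89, 6.80 and 6.28 in P1 to P3, a log2 difference of 1.44 (SE 0.25, limma adjusted p = 0.0468), and it read 8.01, 7.86, 7.14 and 6.66 in B1 to B4. That call was lost in 5 of the 6 fits that left out 1 array (limma adjusted p of 0.0872 to 0.209), all but the one without P replicate 2. The summed intensity of the list was 3662 to 4561 in B, 3385 to 4950 in L and 3492 to 4218 in P sublines. Itgb2 and the 3 genes detected throughout were thus present in B sublines in which Lyz1, Lyz2, Laptm5 and Ptprc were not detected.

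Lymphocyte, granulocyte and mast cell markers were mostly undetected. Of 13 lymphocyte genes with a probe, 1 was detected (Cd8b1, on all 10 arrays), and of 15 granulocyte and mast cell genes with a probe, 2 were (S100a8 on 5 arrays and Csf3r on 1), and none of these was called. Among 7 MHC class II genes, H2-DMa was detected on all 10 arrays, H2-Ab1 on 5 and Cd74, the invariant chain, on 6, and only Cd74 was called. Cd74 read 5.52, 5.30, 6.29 and 4.75 in B1 to B4, 7.02, 7.40 and 7.86 in L1 to L3, and 5.32, 6.76 and 6.46 in P1 to P3. It was lower in B than in L sublines, with a log2 difference of -1.96 (SE 0.34, limma adjusted p = 0.0121). A second probe gave -1.87 (limma adjusted p = 0.017 over all probes), and its other probe was not detected. On the probe read here, B3 was the only B subline detected, so the difference is not a measured fold. Like Lyz1, Cd74 was lowest among the P sublines in P1, where neither was detected. Its call was lost without L replicate 2 (limma adjusted p = 0.0649) and without L replicate 3 (0.0549).

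**Figure D4:**
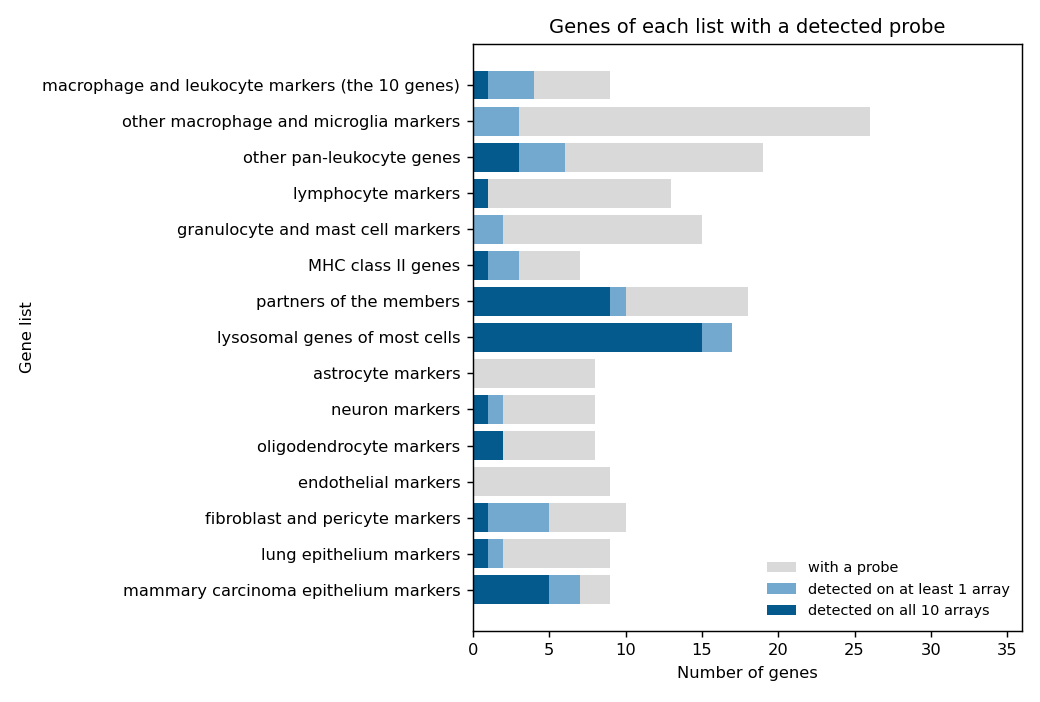
Number of genes (horizontal axis) of each marker list that had a probe, that were detected on at least 1 array and that were detected on all 10 arrays. Of the 10 marker genes 9 had a probe, 4 were detected and 1, Cd14, was detected throughout.

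Cd14 was followed to its partners, from a list of 19 ligands, receptors and adaptors of the members, of which 18 had a probe, 10 were detected and 9 were detected on all arrays. Tlr4, the receptor to which Cd14 hands lipopolysaccharide, averaged 9.66 ± 0.12 in B, 8.47 ± 0.35 in L and 8.31 ± 0.08 in P sublines (SD). It was higher in B than in P by 1.34 (SE 0.15, limma adjusted p = 0.00243) and higher in B than in L by 1.18 (SE 0.19, limma adjusted p = 0.00971). A second Tlr4 probe gave 0.90 and 0.84, and the last was not detected. Ly96 (MD-2), which completes the receptor, averaged 8.94 ± 0.26 in B, 8.24 ± 0.08 in L and 8.07 ± 0.06 in P sublines, higher in B than in P by 0.87 (SE 0.18, limma adjusted p = 0.0158) and than in L by 0.70 (SE 0.18, limma adjusted p = 0.0453). Tlr4 and Ly96 were therefore highest in the B sublines, while Cd14 itself was not called in either comparison.

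The calls of Tlr4 held without any single array. Those of Ly96 did not: against P the limma adjusted p was 0.0706, 0.0588 and 0.0555 without P replicate 1, 2 or 3, and against L only the fit without B replicate 4 (0.0384) kept the call, all other fits giving 0.0531 to 0.171, and the block of same-numbered sublines gave 0.0617. These 2 genes were the only ones of the list called, 2 of 10 in B against P and 2 of 10 in B against L, both higher in B, and 0 of 9 in L against P. Over all genes tested, 14.4%, 8.07% and 0.412% were called in these comparisons, so counts this small are no result about the list. Csf1 and Il34, the ligands of Csf1r, were detected on all 10 arrays although Csf1r was detected on none. Csf1 averaged 9.55 ± 0.43 in B, 9.85 ± 0.15 in L and 9.59 ± 0.43 in P sublines, and Il34 8.09 ± 0.35 in B, 7.44 ± 0.35 in L and 7.55 ± 0.21 in P sublines, and limma called neither in any comparison, except Il34 in B against P without B replicate 2 (adjusted p = 0.0418).

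**Figure D5:**
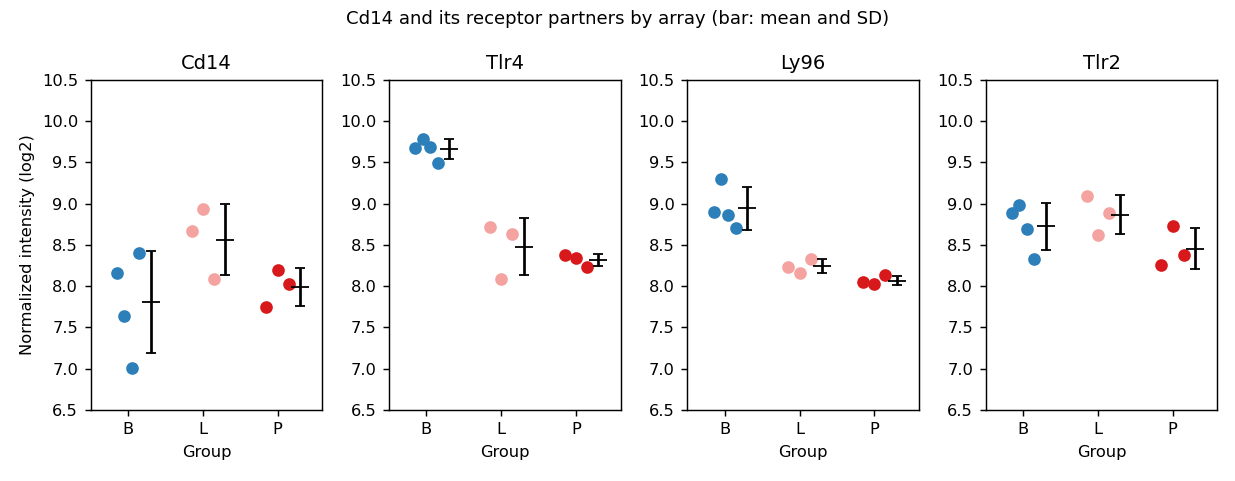
Normalized log2 intensity of Cd14, Tlr4, Ly96 and Tlr2 in each subline of groups B, L and P, with bars for the mean and SD (n = 4, 3 and 3). Tlr4 and Ly96 lie higher in all 4 B sublines than in any L or P subline, while the Cd14 and Tlr2 points of the groups overlap.

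Laptm5 and Cd68 are lysosomal proteins, and of 20 lysosomal genes that most cells express, 17 had a probe and all 17 were detected. Of these, 8 were called in B against P and 3 in B against L, all higher in B, and 0 in L against P, beside 14.4%, 8.07% and 0.412% of all genes tested. The median log2 differences of the list were 0.64, 0.50 and 0.14. Laptm5 in B against L thus had the opposite sign from the genes of that list that were called. Laptm5 entered that test only through L3, so the detection filter favoured its sign. Laptm4b, Gusb and Hexa were uncalled and also lower in B than in L, by -0.39, -0.38 and -0.61, and the rest of the list was higher in B.

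For the organs of origin, 0 of 8 astrocyte genes and 0 of 9 endothelial genes were detected on any array, 2 of 8 neuron genes, 2 of 8 oligodendrocyte genes with a probe, 5 of 10 fibroblast and pericyte genes and 2 of 9 lung epithelium genes. None of the neuron and oligodendrocyte genes was called, and in B against P 1 fibroblast and 1 lung epithelium gene were called, both higher in B, as was 1 lung epithelium gene in B against L. Of 9 mammary carcinoma epithelium genes, 7 were detected, and 3 were called in B against P and 3 in B against L, all lower in B. The median log2 difference of the list was -1.1 against P and -1.41 against L. Krt14 differed most, by -4.75 against P and -5.05 against L (limma adjusted p = 0.00418 and 0.00322), undetected in B2 and B3. Krt7, Krt19, Cdh1 and Cldn7 were also lower in B in both comparisons. The other detected genes, Krt8 and Krt18, were uncalled and higher in B, by 0.48 and 0.45 against P and by 0.35 and 0.46 against L. Over all genes tested, 14.4% were called in B against P (6.91% lower in B) and 8.07% in B against L (4.23% lower in B). The part of host cells of any kind in the Lyz1, Lyz2 and Laptm5 differences was not tested.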

How the data were processed

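The labels describe total RNA from cells grown in culture, hybridised as biotin-labelled cRNA to Illumina MouseWG-6 v2.0 BeadChips, 1 array per subline. The authors extracted the raw data with GenomeStudio, and per the file headers the deposited table holds a mean bead intensity, not background-corrected, and a detection p-value for each of 45281 probes. The p-value compares a probe with the negative controls of its array and came in steps of about 1 in 936. The deposited value table holds the authors' processed values of 17550 probes, close to a log2 scale, made with the R package lumi (variance-stabilising transformation, robust spline normalisation, probes undetected at a detection p of 0.01 removed). Its columns had medians of 8.26 to 8.28 and correlated at 0.991 or more with the log2 intensity of the same array, and its exact scale is not stated. Genome build and slide positions were not given in the sources used here, so a slide could not be used as a block. The precision rests on 3 or 4 arrays per group.

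Intensities were background-corrected by normexp on negative controls inferred from the detection p-values, quantile normalized and put on the log2 scale (neqc in limma 3.58.1, R 4.3.3, offset of 16). Probes that no array of the compared pair of groups detected were left out. Of 45281 probes, 34885 had 1 gene symbol, 18 had several and 10378 had none, and where a gene had several probes, the most variable one (by interquartile range) stood for it, as in the study's methods. Each pair of groups was fitted by lmFit and eBayes, two-sided, with Benjamini-Hochberg adjustment over all genes and a call at an adjusted p under 0.05. The fit was tested on simulated data first. Promoters came from the RefSeq table (Python 3.11.15, Biopython 1.88 for alignment).

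The members, the other lists, the tests and the alternatives were chosen with earlier results of these data known. Named were all members, up to 3 called genes of each other list per comparison, the leukocyte list genes detected on most arrays, and the 3 genes most correlated with a member detected on at least 5 arrays. Of the genes this rule gives, those of lists other than leukocytes and partners are reported as counts. The detected mammary carcinoma epithelium genes are named as well.

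Replicate numbers recur in the groups without any stated pairing. Deviations of same-numbered sublines correlated at 0.142 to 0.211 in all 3 pairs of B and L, which by the rule used here counts as pairing, at -0.116 to 0.04 in B and P and at -0.105 to 0.089 in L and P. No 2 arrays were identical (highest correlation 0.989). The alternatives were other background correction, offset, scaling, filter, detection limit, probe choice and test, all detected probes, all 10 arrays in 1 model, the replicate block, the authors' values and leaving out each array.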

Additional observations from a re-analysis of the deposited data

Results flagged for a closer look

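Over the 4 B sublines, each of the 19 marker probes was examined for an array far from the other 3, and 2 probes had one, both times B2. On the Lyz1 probe ILMN_2878071, B2 read 5.24 on the log2 scale and the next B array 4.57, a gap of 0.848 of the group's range, with a detection p of 0.0556 in B2. On the undetected Lyz2 probe ILMN_2766780, B2 read 4.71 and the next B array 4.51, a gap of 0.842 of the range, with a detection p of 0.285. Neither value was above background at a detection p of 0.01, and chance alone gives such a gap in about 1 of 20 groups. The groups of 3 were too small to examine in this way.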

How the results depend on the processing

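Lyz1 and Lyz2 stayed called in B against L under all 18 alternatives (limma adjusted p of 9.74e-05 to 0.0062 and 0.00184 to 0.0167), and Laptm5 in 16 of the 17 that could test it (0.0133 to 0.051). The size of these differences changed with the processing. Outside the single-array fits, Lyz1 ranged from -3.69 to -1.56, Lyz2 from -2.09 to -0.67 and Laptm5 from -1.42 to -0.41. The value of -1.56 came with the authors' values, whose exact scale is not stated. The members called were 3 in B against L under each alternative other than leaving out an array, and 0 in L against P under all. In B against P they were 0 except with all 10 arrays in 1 model, where Lyz1 was called (1 member, limma adjusted p = 0.0491). Leaving out single arrays gave 0 to 2 members called in B against P, 2 to 3 in B against L and 0 in L against P, and 4 members detected each time. A detection p of 0.05 gave 6 members detected (Csf1r and Aif1 added) and one of 0.001 gave 4.

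Signs changed only without single arrays and never in a called value. In B against P without 1 array, Cd14 differed by -0.38 to 0.083 (above 0 without B replicate 3), Csf1 by -0.27 to 0.15 and S100a8 by -0.066 to 1.30, and in L against P Il34 differed by -0.30 to 0.025. Outside the single-array fits, the Mertk call in B against P was lost with the authors' values, an offset of 50, no filter, the brightest probe and all probes, the Ly96 call in B against L with the replicate block (limma adjusted p = 0.0617), and the Itgb2 call in L against P in 6 of 11. Calls were gained for Itgb2 in B against P and Mertk in B against L with all 10 arrays or the block, for Mertk also with median scaling, and for Cd74 in L against P without background correction.

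Over all genes, B against P gave 1350 calls, 2118 with all probes, 701 with the replicate block and 330 to 1410 without 1 array. B against L gave 760, 1146 with all 10 arrays and 130 to 839 without 1 array. L against P gave 37, 169 without background correction, 155 with an offset of 50, 9 with the replicate block and 0 to 124 without 1 array. No filter and all 10 arrays in 1 model gave 0 there, beside 2048 and 873 genes at an unadjusted p under 0.05. The block over the shared replicate numbers changed no member's call. The causes of these changes were not tested. Signal limits the undetected genes: values under about 5.57 to 5.92 log2 units, the dimmest detected probe of each array, have only an upper bound.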
